A study of Mus musculus with 24 samples.

Results

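YAP and TAZ are paired transcriptional co-activators, and the 9 genes described here are Yap1 and Wwtr1, which encode them, Tead1, which encodes a DNA-binding partner, and 6 of their widely used target genes, Ccn1, Ccn2, Ankrd1, Amotl2, Ajuba, and Lats2. They were taken by symbol from the 55421 mouse genes of the count table, with no filter on their values, and each was found once. RNA was sequenced from alveolar epithelial type 2 cells (AEC2s), the surfactant-producing progenitors of the alveolus, freshly isolated (D0) or cultured in 2D for 1, 3, or 7 days (D1, D3, and D7). The cells came from wild-type mice (Krt8+/+, labelled WT) or from mice that lack Krt8 in all tissues (Krt8–/–, labelled KO), so the deletion was not limited to AEC2s. Each of the 8 groups of genotype and day held 3 libraries. Their titles end in 1 of 3 numbers that all groups share, read here as the dates of 3 isolations. The titles do not say what these numbers are, and the labels name no agent. Neither the ages of the mice nor any pooling of animals is given in the sources used here. The design asks how the RNA of each gene changed as AEC2s left their starting state in culture, and whether loss of Krt8, a keratin of the intermediate filaments, altered that change.

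In the Hippo pathway, the kinases MST1 and MST2 act through LATS1 and LATS2 to phosphorylate YAP and TAZ, which are then kept in the cytoplasm or degraded. When this cascade is low, as in cells that spread on a stiff surface or lose contacts, YAP and TAZ enter the nucleus, bind TEAD factors, and raise the transcription of genes such as Ccn1, Ccn2, and Ankrd1. Several targets, among them Lats2, Amotl2, and Ajuba, encode proteins that feed back on the pathway, and in the lung YAP and TAZ are known for their part in AEC2 proliferation and in the formation of flat, gas-exchanging type 1 cells (AEC1s). RNA levels do not show where the proteins are or whether they are phosphorylated.

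Total counts ranged from 10184439 to 19483386 per library. Values are given as CPM, counts scaled to a common library total with edgeR's TMM factors, in the order of isolations 1, 2, and 3. Krt8 lay between 485 and 5092 CPM in the 12 Krt8+/+ libraries and between 21.2 and 47.4 CPM in the 12 Krt8–/– libraries, with no overlap. The libraries of isolation 1 differed in sex, since Y-linked genes summed to no more than 0.441 CPM in its Krt8+/+ libraries and to 173 CPM or more in its Krt8–/– libraries, and those of isolations 2 and 3 did not differ between genotypes in this way. The sum of 7 AEC2 markers (Sftpc, Sftpb, Sftpa1, Lamp3, Abca3, Napsa, and Etv5) fell from between 211519 and 292343 CPM at D0 to between 166 and 235 CPM at D7. On D1, isolation 2 stood apart in both genotypes, with an AEC2 sum of 15001 CPM (Krt8+/+) and 14186 CPM (Krt8–/–), whereas the other 4 libraries held 63055 to 87434 CPM, and results at D1 are given with and without it where that changed a call.

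The 9 genes lie on 6 chromosomes of the mouse genome (GRCm38), and each is annotated as protein coding in GENCODE M21. Yap1 (ENSMUSG00000053110) is at chr9:7931999-8004596 and Amotl2 (ENSMUSG00000032531) at chr9:102716672-102733418. Wwtr1 (ENSMUSG00000027803) is at chr3:57455649-57575910 and Ccn1 (ENSMUSG00000028195) at chr3:145646976-145649981. Ajuba (ENSMUSG00000022178) is at chr14:54567472-54577558 and Lats2 (ENSMUSG00000021959) at chr14:57689662-57758388. Tead1 (ENSMUSG00000055320) is at chr7:112679318-112906807, Ccn2 (ENSMUSG00000019997) at chr10:24595442-24598683, and Ankrd1 (ENSMUSG00000024803) at chr19:36111961-36120099. Exons of 3 of them overlap those of another annotated gene. The partner of Yap1 had 0 counts in all 24 libraries, the partner of Ccn2 had 743 counts beside 469052 for Ccn2, and the partner of Lats2, on the same strand, had 2 counts beside 40622 for Lats2. The labels do not say whether counting used strand, so reads of a gene and an antisense partner could not be told apart.

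TEAD factors bind the letters GGAATG or, on the opposite strand, CATTCC, and RefSeq promoter windows (GRCm38.p6, 250 bases before to 50 after the start site) were searched for them on both strands. Windows were given for 7 of the 9 genes, in 9 entries, and not for Tead1 and Ccn2. All 7 genes held the letters, in 8 of their 9 entries. Among the 11695 genes tested here that had a window, 14.8% held them, and among all 32851 windows 14.7%. Of 10 other YAP/TAZ target genes with a window, 2 held them (Axl and Crim1). The letters TGANTCA, which AP-1 factors bind, read the same on both strands and do not share a full match with the TEAD letters. They were found in 0 of the 7 genes and in 6.79% of the tested genes. A match is a stretch of letters and was not tied to binding. The genes and the letters searched were chosen with earlier results of these data known, and the contrast with all genes was not tested. The stretch from 250 to 81 bases before the start site is shown for the 3 target genes with a window that rose most (Ccn1, Ankrd1, and Ajuba) and for Yap1, which was called higher on no day on the TMM scale, 5′ to 3′ on the strand of the gene, with the TEAD letters in capitals. All 4 lie on the minus strand, at chr3:145650066-145650235 (Ccn1), chr19:36119925-36120094 (Ankrd1), chr14:54577742-54577911 (Ajuba), and chr9:8004677-8004846 (Yap1).
Ccn1: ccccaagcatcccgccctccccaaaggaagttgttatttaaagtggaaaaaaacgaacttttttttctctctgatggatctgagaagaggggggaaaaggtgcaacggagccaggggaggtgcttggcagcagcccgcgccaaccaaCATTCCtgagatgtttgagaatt
Ankrd1: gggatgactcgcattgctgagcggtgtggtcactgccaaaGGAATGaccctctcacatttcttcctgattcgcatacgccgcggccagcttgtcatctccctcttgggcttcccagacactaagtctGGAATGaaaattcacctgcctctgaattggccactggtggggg
Ajuba: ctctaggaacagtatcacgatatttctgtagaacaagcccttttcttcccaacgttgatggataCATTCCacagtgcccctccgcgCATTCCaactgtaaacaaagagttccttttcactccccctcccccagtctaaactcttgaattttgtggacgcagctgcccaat
Yap1: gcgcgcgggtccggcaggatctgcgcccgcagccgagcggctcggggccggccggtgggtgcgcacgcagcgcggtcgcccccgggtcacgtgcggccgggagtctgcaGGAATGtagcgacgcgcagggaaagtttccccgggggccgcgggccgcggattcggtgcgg
Ankrd1 and Ajuba each held the letters at 2 positions, and Ccn1 and Yap1 at 1. In Ankrd1 they start 210 and 123 bases before the start site, in Ajuba 186 and 164, in Yap1 141, and in Ccn1 103.

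From D0 to D7, the 6 target genes rose in both genotypes, Wwtr1 and Tead1 rose, and Yap1 did not pass the test at D7 on the TMM scale, although it did when only library totals were used. Of the 9 genes, edgeR's quasi-likelihood test called 6 higher and 0 lower at D1 in Krt8+/+ AECs (adjusted p under 0.05 over 18046 genes), where 54.7% of all genes tested were called, 26.2% higher and 28.5% lower. On D3 it called 8 higher (54.0% of all genes called, 26.1% higher and 27.8% lower), and at D7 also 8 (58.8% called, 28.6% higher and 30.2% lower). In Krt8–/– AECs, 7 were higher and 1, Yap1, lower at D1 (50.6% of all genes called, 23.7% higher and 26.9% lower), 7 were higher at D3 (52.0% called, 25.4% higher and 26.6% lower), and 8 at D7 (58.5% called, 28.6% higher and 29.9% lower). The median log2 fold change over the 9 genes in Krt8+/+ AECs was 1.19 at D1, 1.34 at D3, and 2.05 at D7, beside a median of 0.00 over all genes tested on each of these days. In Krt8–/– AECs the medians were 0.72, 1.05, and 1.92, beside -0.01, -0.01, and 0.00. The 3 days share the same D0 libraries, so these comparisons are not independent of each other. These 9 genes are among the best known of the pathway and were not drawn at random, so their counts are a description of them and of no other set.

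**Figure D1:**
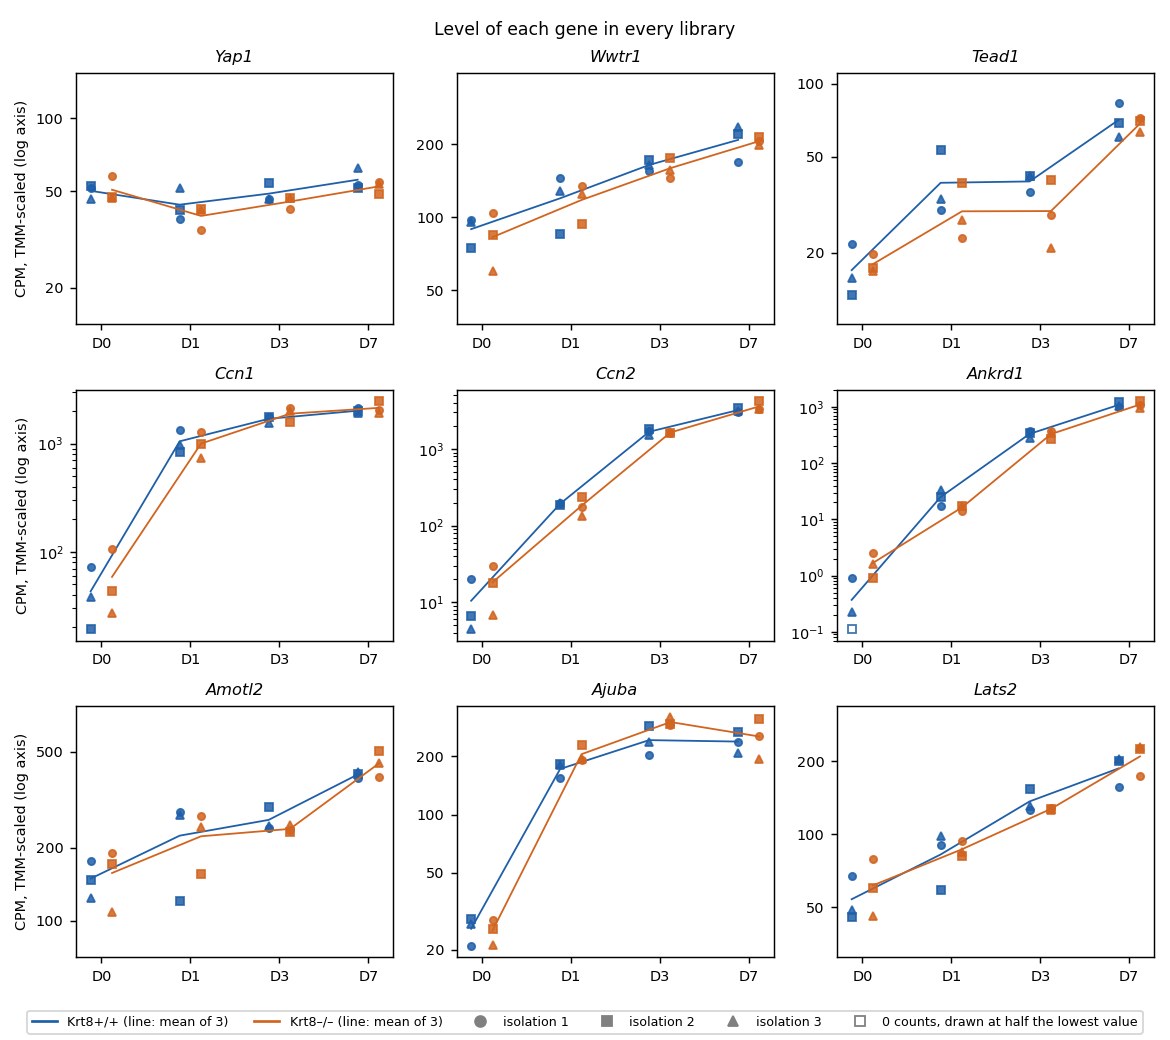
TMM-scaled CPM (log axis) of each of the 9 genes in every library against day of culture, with the mean of 3 isolations as a line and a marker for each isolation. Ccn1, Ccn2, Ankrd1, and Ajuba in each culture library lie above all D0 libraries of both genotypes, whereas the Yap1 values of all 8 groups lie between 34.5 and 62.6 CPM.

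Yap1 and Wwtr1, which encode the co-activators YAP and TAZ, moved differently. In Krt8+/+ AECs Yap1 was counted at 51.5, 52.5, and 46.5 CPM at D0, 38.4, 41.8, and 51.7 at D1, 46.2, 54.0, and 46.3 at D3, and 53.0, 51.7, and 62.6 at D7. The Krt8–/– values were 58.0, 47.2, and 46.9 CPM at D0, 34.5, 42.4, and 41.6 at D1, 42.1, 46.9, and 47.0 at D3, and 54.8, 48.7, and 53.5 at D7. Every culture group overlapped D0 of its genotype except Krt8–/– AECs at D1, where all 3 libraries were lower. The log2 fold change over D0 in Krt8+/+ AECs was -0.19 (standard error 0.13, adjusted p = 0.232) at D1, -0.04 (95% confidence interval -0.31 to 0.24) at D3, and 0.15 (-0.12 to 0.43) at D7, and none of these passed the test. In Krt8–/– AECs Yap1 fell by 0.36 on the log2 scale at D1 (standard error 0.13, adjusted p = 0.0293), and the values on D3 and D7 were -0.16 (adjusted p = 0.321) and 0.05 (adjusted p = 0.786). The fall at D1 did not pass the test with DESeq2's size factors (adjusted p = 0.0578), without the filter on low counts (0.130), or without isolation 1 (-0.16, adjusted p = 0.448) or 2 (0.142).

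The direction of Yap1 depended on the scaling. With library totals alone, the median of all genes against D0 moved to 0.46, 0.60, and 0.45 on D1, D3, and D7 in Krt8+/+ AECs and to 0.47, 0.54, and 0.43 in Krt8–/– AECs, and fold changes are therefore given relative to the TMM scale, on which that median was 0.00 or -0.01. On the scale of library totals, Yap1 was at 0.28, 0.57, and 0.61 in Krt8+/+ and at 0.14, 0.40, and 0.48 in Krt8–/– AECs, which turns its direction on D1 and D3 in both genotypes and passes the test on D3 and D7 (adjusted p = 0.00278 and 0.00152 in Krt8+/+, 0.0266 and 0.00922 in Krt8–/–). The other 8 genes kept a positive log2 fold change over D0 under each alternative run.

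Wwtr1 was counted in Krt8+/+ AECs at 97.2, 75.0, and 95.7 CPM at D0, 145, 85.4, and 128 at D1, 156, 173, and 164 at D3, and 169, 221, and 235 at D7. Among Krt8–/– libraries the values were 104, 84.2, and 60.2 CPM at D0, 135, 94.0, and 124 at D1, 145, 176, and 157 at D3, and 207, 214, and 198 at D7. All libraries of D3 and D7 were above all D0 libraries of their genotype, and D1 overlapped D0 in both. The log2 fold change in Krt8+/+ AECs was 0.42 (standard error 0.20, adjusted p = 0.0756) at D1, 0.88 (standard error 0.20, adjusted p = 8.2e-04) at D3, and 1.22 (standard error 0.20, adjusted p = 2.3e-05) at D7. Log2 fold changes for Krt8–/– AECs were 0.51 (standard error 0.20, adjusted p = 0.0371), 0.95 (standard error 0.20, adjusted p = 4.4e-04), and 1.32 (standard error 0.20, adjusted p = 9.8e-06). Isolation 2 of D1, the one with few AEC2 marker counts, held the lowest Wwtr1 level of that day in both genotypes. With DESeq2's test, the D1 change in Krt8+/+ AECs passed (0.48, adjusted p = 0.0338). Without isolation 2 it was 0.58 and also passed (adjusted p = 0.0441), whereas the D1 change in Krt8–/– AECs was lost without isolation 3 (0.28, adjusted p = 0.404) and, narrowly, without isolation 1 (0.05002).

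As RPKM, which divides CPM by the merged exon length in kilobases, Wwtr1 was higher than Yap1 in every library. The ratio of their RPKM levels was 3.47 ± 0.632 (SD, n = 3) at D0 in Krt8+/+ AECs, 5.36 ± 1.75 at D1, 6.53 ± 0.332 at D3, and 7.25 ± 1.04 at D7. The corresponding Krt8–/– ratios were 3.14 ± 0.564, 5.88 ± 1.64, 6.81 ± 0.416, and 7.66 ± 0.735. The ratio on D3 and D7 was above all D0 libraries in each genotype, from 6.19 to 8.50 at D7 against 2.49 to 3.98 at D0.

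Tead1, one of 4 TEAD genes that give YAP and TAZ their hold on DNA, was higher than at D0 on each culture day. In Krt8+/+ AECs it stood at 21.8, 13.4, and 15.7 CPM at D0, 30.1, 53.4, and 33.3 at D1, 35.6, 41.4, and 41.4 at D3, and 83.2, 68.8, and 60.3 at D7. The Krt8–/– values were 19.7, 17.4, and 16.8 CPM at D0, 23.0, 38.8, and 27.3 at D1, 28.6, 39.8, and 20.9 at D3, and 72.2, 69.8, and 63.1 at D7. No culture group overlapped D0 of its genotype, and isolation 2 held the highest value of D1 in both. The log2 fold change in Krt8+/+ AECs was 1.19 (standard error 0.25, adjusted p = 4.5e-04) at D1, 1.21 (standard error 0.25, adjusted p = 3.4e-04) at D3, and 2.05 (standard error 0.25, adjusted p = 7.0e-07) at D7. Among Krt8–/– libraries the log2 fold changes were 0.72 (standard error 0.25, adjusted p = 0.0189), 0.73 (standard error 0.25, adjusted p = 0.0176), and 1.92 (standard error 0.25, adjusted p = 1.5e-06). Without isolation 2 the changes on D1 and D3 in Krt8–/– AECs were 0.55 and 0.51 and did not pass the test (adjusted p = 0.0816 and 0.100), nor did D1 without isolation 3 (0.0836). No change was called from D1 to D3, and from D3 to D7 Tead1 rose again, by 0.84 (adjusted p = 0.0382) in Krt8+/+ and 1.20 (adjusted p = 0.00244) in Krt8–/– AECs.

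Ccn1 and Ccn2, formerly Cyr61 and Ctgf, encode secreted matricellular proteins that bind integrins, and they are the targets most often used to read YAP/TAZ activity. Ccn1 was counted in Krt8+/+ AECs at 72.0, 19.2, and 38.3 CPM at D0, 1349, 833, and 972 at D1, 1757, 1781, and 1556 at D3, and 2132, 1986, and 1933 at D7. Values for Krt8–/– AECs were 105, 43.2, and 27.3 CPM at D0, 1280.0, 983, and 741 at D1, 2122, 1571, and 1988 at D3, and 2034, 2481, and 1915 at D7. Each library of D1 was above every D0 library of both genotypes. The fold change over D0 in Krt8+/+ AECs was 24.2 (95% confidence interval 12.6 to 46.6, adjusted p = 6.2e-08) at D1, 39.1 (19.9 to 76.8, 1.3e-08) at D3, and 46.5 (23.5 to 92.0, 5.0e-09) at D7. The corresponding Krt8–/– fold changes were 17.0 (9.01 to 32.2, adjusted p = 2.3e-07), 32.2 (16.6 to 62.7, 2.4e-08), and 36.5 (18.7 to 71.3, 9.4e-09). From D1 to D3 Ccn1 differed by 0.69 (standard error 0.39, adjusted p = 0.200) on the log2 scale in Krt8+/+ AECs and by 0.92 (standard error 0.39, adjusted p = 0.0940) in Krt8–/– AECs, and with isolation as a block the latter passed the test (0.95, adjusted p = 0.0333). Without isolation 1, the log2 fold change in Krt8–/– AECs was 5.66 at D3, in place of 5.01, and 5.96 at D7, in place of 5.19.

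Ccn2 started lower and rose for longer. In Krt8+/+ AECs it stood at 20.3, 6.72, and 4.43 CPM at D0, 198, 186, and 196 at D1, 1701, 1806, and 1527 at D3, and 3063, 3445, and 3146 at D7. The Krt8–/– values were 30.1, 17.7, and 6.80 CPM at D0, 175, 236, and 133 at D1, 1629.7, 1615, and 1686 at D3, and 3289.9, 4230.2, and 3301 at D7. No 2 days overlapped within a genotype, so the order of the days was the same in all 3 isolations. The fold change over D0 in Krt8+/+ AECs was 17.9 (95% confidence interval 9.24 to 34.7, adjusted p = 2.8e-07) at D1, 156 (73.0 to 332, 1.0e-09) at D3, and 299 (136 to 656, 1.8e-10) at D7. Among Krt8–/– libraries the fold changes were 9.96 (5.29 to 18.8, adjusted p = 3.2e-06), 90.1 (43.5 to 187, 2.9e-09), and 198 (92.0 to 425, 3.2e-10). From D1 to D3 alone, Ccn2 rose 8.69-fold (4.69 to 16.1, adjusted p = 2.7e-05) in Krt8+/+ and 9.05-fold (4.87 to 16.8, 2.7e-05) in Krt8–/– AECs. From D3 to D7 the log2 difference was 0.94 (standard error 0.40, adjusted p = 0.187) in Krt8+/+ AECs and 1.13 (standard error 0.40, adjusted p = 0.0764) in Krt8–/– AECs, and with isolation as a block the Krt8–/– value passed the test (adjusted p = 0.0465). Isolation 1 had the highest D0 level in both genotypes. Without it, the log2 fold changes on D1, D3, and D7 were 5.09, 8.22, and 9.21 in Krt8+/+ AECs, in place of 4.16, 7.28, and 8.22, and 3.93, 7.09, and 8.28 in Krt8–/– AECs, in place of 3.32, 6.49, and 7.63.

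Ankrd1, an ankyrin-repeat protein found in the nucleus and in the cytoplasm, was near 0 at D0 and was higher on each culture day than on the one before. In Krt8+/+ AECs it had 14, 0, and 2 counts at D0, or 0.890, 0, and 0.221 CPM, and 17.2, 24.7, and 33.1 CPM at D1, 372, 338, and 284 at D3, and 999, 1227, and 1025 at D7. In Krt8–/– AECs it had 35, 9, and 21 counts at D0, or 2.52, 0.911, and 1.62 CPM, and 13.8, 17.6, and 17.5 CPM at D1, 379, 264, and 341 at D3, and 1068, 1272, and 963 at D7. The days did not overlap in either genotype, and D7 was above D3, D3 above D1, and D1 above D0 in each isolation. Because the Krt8+/+ D0 libraries held 16 counts in all, the change is given as a ratio of scaled counts summed over the 3 libraries, 53.6 (exact 95% interval 32.8 to 94.1) at D1, 698 (exact 95% interval 429.9 to 1222) at D3, and 2282 (exact 95% interval 1405 to 3992) at D7, with intervals for counting error only. Isolation 1 held 14 of the 16 counts. Without it the ratio rested on 2 D0 counts and was 268 (95% confidence interval 73.9 to 2216) at D1, 2820.3 (95% confidence interval 781 to 23292) at D3, and 10179.7 (95% confidence interval 2818 to 84061) at D7. In Krt8–/– AECs the fitted fold change was 9.38 (95% confidence interval 5.58 to 15.8, adjusted p = 3.6e-07), 188 (106 to 333, 1.8e-11), and 631 (345 to 1157, 1.3e-12). From D1 to D3 it rose 13.2-fold (adjusted p = 2.3e-07) in Krt8+/+ and 20.0-fold (4.9e-08) in Krt8–/– AECs, and from D3 to D7 a further 3.27-fold (8.8e-04) and 3.36-fold (3.8e-04). Without isolation 3, the last step in Krt8+/+ AECs was 1.65 on the log2 scale and just missed the threshold (adjusted p = 0.0512).

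Of the 3 targets that feed back on the pathway, Ajuba changed most. It encodes a LIM-domain protein of cell junctions that binds LATS kinases. In Krt8+/+ AECs Ajuba was counted at 21.0, 28.8, and 27.2 CPM at D0, 154, 182, and 180.3 at D1, 203, 288, and 237 at D3, and 237, 268, and 209 at D7. Values for Krt8–/– AECs were 28.5, 25.7, and 21.2 CPM at D0, 192, 229, and 194 at D1, 289, 295, and 318 at D3, and 253, 313, and 193 at D7. All culture libraries were above all D0 libraries, with narrow ranges at D1. The log2 fold change in Krt8+/+ AECs was 2.75 (standard error 0.18, adjusted p = 4.3e-10) at D1, 3.24 (standard error 0.19, adjusted p = 5.4e-11) at D3, and 3.22 (standard error 0.19, adjusted p = 3.5e-11) at D7. The corresponding Krt8–/– log2 fold changes were 3.03 (standard error 0.19, adjusted p = 1.5e-10), 3.58 (standard error 0.19, adjusted p = 2.0e-11), and 3.33 (standard error 0.19, adjusted p = 2.1e-11). The further step from D1 to D3 was 0.50 (adjusted p = 0.0360) in Krt8+/+ and 0.55 (adjusted p = 0.0230) in Krt8–/– AECs. In Krt8+/+ AECs that step did not pass the test when any 1 isolation was left out (adjusted p = 0.106, 0.213, and 0.0989 without isolations 1, 2, and 3) or with DESeq2's size factors (0.0605), and in Krt8–/– AECs when isolation 1 or 3 was (0.130 and 0.168).

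Lats2, the kinase that phosphorylates YAP and TAZ, was higher than at D0 on each culture day. Its levels in Krt8+/+ AECs were 67.3, 45.7, and 48.6 CPM at D0, 90.6, 58.9, and 97.8 at D1, 126, 153, and 131 at D3, and 156, 199.9, and 204 at D7. The Krt8–/– values were 78.7, 59.9, and 45.7 CPM at D0, 94.0, 81.1, and 84.7 at D1, 128, 127, and 126 at D3, and 174, 224, and 229.8 at D7. D1 overlapped D0 in Krt8+/+ AECs, with isolation 2 the lowest, and D3 and D7 were above D0 in both genotypes. The log2 fold change in Krt8+/+ AECs was 0.61 (standard error 0.20, adjusted p = 0.0136) at D1, 1.34 (standard error 0.20, adjusted p = 1.1e-05) at D3, and 1.79 (standard error 0.20, adjusted p = 2.4e-07) at D7, and in Krt8–/– AECs 0.49 (standard error 0.20, adjusted p = 0.0437), 1.05 (standard error 0.20, adjusted p = 1.7e-04), and 1.77 (standard error 0.20, adjusted p = 2.8e-07). The D1 call was lost without isolation 3 in Krt8+/+ AECs (0.40, adjusted p = 0.210), and in Krt8–/– AECs without isolation 3 (0.34, 0.303) or 2 (0.61, 0.0575).

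Amotl2, an angiomotin family protein that tethers YAP at junctions and F-actin, had the highest RPKM of the 9 genes at D0 in Krt8+/+ AECs. Its counts there gave 176, 148, and 125 CPM at D0, 281, 121, and 273 at D1, 242, 296, and 246 at D3, and 388, 406, and 412 at D7. Among Krt8–/– libraries the values were 191, 172, and 109 CPM at D0, 271, 156, and 243 at D1, 237, 232, and 249.8 at D3, and 391, 500.4, and 449 at D7. On D1, isolation 2 was lower than at D0 in both genotypes while isolations 1 and 3 were higher, and from D3 on no library overlapped D0. The log2 fold change in Krt8+/+ AECs was 0.59 (standard error 0.25, adjusted p = 0.0560) at D1, 0.80 (standard error 0.25, adjusted p = 0.0113) at D3, and 1.43 (standard error 0.26, adjusted p = 7.7e-05) at D7, and in Krt8–/– AECs 0.50 (standard error 0.25, adjusted p = 0.105), 0.60 (standard error 0.25, adjusted p = 0.0518), and 1.50 (standard error 0.26, adjusted p = 4.3e-05). With DESeq2's test, D1 in Krt8+/+ AECs passed (0.65, adjusted p = 0.0241). Without isolation 2, D1 passed edgeR's test in Krt8+/+ (0.96, adjusted p = 0.00392) and in Krt8–/– AECs (0.87, 0.00729), and D3 did in Krt8–/– AECs (0.77, 0.0125). D3 in Krt8–/– AECs passed under 6 of the 8 alternatives, among them isolation as a block (0.61, adjusted p = 0.0483), and not without isolation 1 or 3. D3 in Krt8+/+ AECs did not pass without isolation 3 (0.73, 0.0919).

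**Figure D2:**
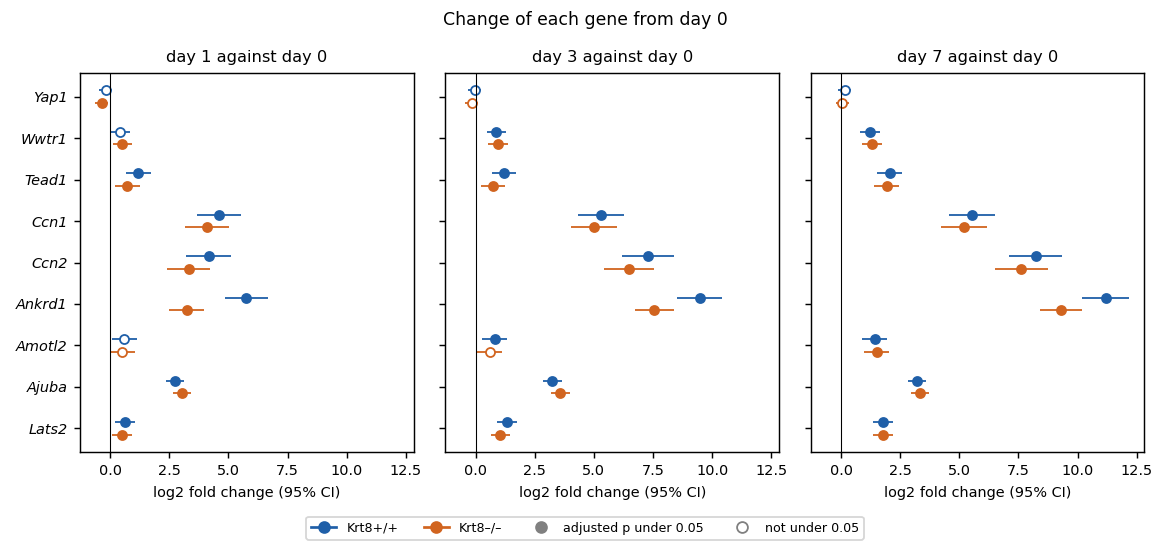
Log2 fold change of each of the 9 genes at D1, D3, or D7 against D0 (x axis), with 95% confidence intervals, in Krt8+/+ and Krt8–/– AECs (3 isolations per group). Filled points passed an adjusted p of 0.05 in edgeR, and the Yap1 points lie between -0.36 and 0.15 on this TMM scale.

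Between neighbouring culture days fewer of the 9 genes were called. From D1 to D3, 4 genes rose in Krt8+/+ AECs (26.3% of all genes called, 14.4% higher and 11.9% lower) and 4 in Krt8–/– AECs (23.6% called, 13.4% higher and 10.2% lower), and both times they were Ccn2, Ankrd1, Ajuba, and Lats2. The Lats2 step was 0.73 (adjusted p = 0.0102) in Krt8+/+ and 0.55 (adjusted p = 0.0470) in Krt8–/– AECs, and it was lost without isolation 2 in the former (adjusted p = 0.238) and without any 1 isolation in the latter (0.0770, 0.191, and 0.186 without isolations 1, 2, and 3). From D3 to D7, Ankrd1 and Tead1 rose in Krt8+/+ AECs (6.58% of all genes called, 3.11% higher and 3.47% lower), and these together with Amotl2 and Lats2 in Krt8–/– AECs (10.5% called, 4.40% higher and 6.15% lower). The Amotl2 step in Krt8–/– AECs was 0.90 (adjusted p = 0.0261) and the Lats2 step 0.72 (adjusted p = 0.0219). When 1 isolation was left out, no Amotl2 step passed (adjusted p = 0.129, 0.0549, and 0.158 without isolations 1, 2, and 3), nor did the Tead1 step in Krt8+/+ AECs (0.332, 0.0775, and 0.123). The Lats2 step did not without isolation 2 or 3 (0.133 and 0.199), and the Tead1 step in Krt8–/– AECs did not without isolation 3 (0.0811). A call in one genotype and not in the other is no difference between them. That difference was tested on its own.

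Compared with each other per length, the 9 genes changed places. On D0 in Krt8+/+ AECs the highest RPKM were those of Amotl2, 23.8 ± 4.09 (SD, n = 3), Ccn1, 21.4 ± 13.2, and Wwtr1, 18.7 ± 2.60, which overlapped within their spread. By D7 Ccn2 was at 1125 ± 70.3 RPKM, Ccn1 at 999 ± 51.0, and Ankrd1 at 375 ± 43.3. Ajuba followed at 65.3 ± 8.12 and Amotl2 at 63.9 ± 2.01, which did not differ beyond their spread, while Yap1 (6.02 ± 0.642) and Tead1 (5.22 ± 0.854) were the lowest. Summed over the 9 genes, the level rose from 439 ± 76.9 CPM at D0 to 1951 ± 359 at D1, 4599 ± 350.1 at D3, and 7480.4 ± 341 at D7. Ccn1, Ccn2, and Ankrd1 held 6.65% to 17.6% of this sum at D0 and 83.8% to 85.1% at D7. In Krt8–/– AECs the sum was 474 ± 141, 1901 ± 307, 4767 ± 348, and 8087 ± 1100.0 CPM on the 4 days.

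No difference between Krt8–/– and Krt8+/+ AECs passed the test for any of the 9 genes. By edgeR, 0 of 9 differed between genotypes at D0 (0.0277% of all genes called), on D1, D3, and D7 (0.0166% on each), over D1 to D7 weighted by time (0.0277%), or in how the difference changed with day (0.00554%), and DESeq2 also called 0 in each. At an unadjusted p under 0.05, edgeR gave 1 gene at D0, 1 at D1, and 1 for the change with day, each time Ankrd1, as well as 1, Ajuba, over D1 to D7, and 0 on D3 and D7. Of all 18046 genes tested, 479 at D0, 638 at D1, 452 at D3, and 255 at D7 were under that unadjusted threshold. The count was 520 over D1 to D7 and 268 for the change with day. Over D1 to D7, the log2 difference (Krt8–/– minus Krt8+/+) ranged from -0.28 for Tead1 to 0.23 for Ajuba, and the 95% confidence intervals of all 9 genes lay between -0.60 and 0.60. Ajuba was at 0.23 (standard error 0.11, 95% confidence interval 0.01 to 0.45). The Yap1 interval was -0.28 to 0.06 and that of Wwtr1 -0.29 to 0.22, while those of Ccn1 and Ccn2 were wider, at -0.41 to 0.60 and -0.49 to 0.54. On D3 the lowest difference was -0.41 for Tead1 and the highest 0.31 for Ajuba, and at D7 they were -0.09 for Yap1 and 0.16 for Ccn2. A miss of the threshold leaves differences inside these intervals possible.

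Ankrd1 was the gene with the largest difference between genotypes, at D0, where its counts were lowest. The Krt8–/– libraries held 35, 9, and 21 counts against 14, 0, and 2 in Krt8+/+ AECs. On the TMM scale the ranges were only just apart, with 0.911 CPM as the lowest Krt8–/– value (isolation 2) and 0.890 as the highest Krt8+/+ value (isolation 1). These libraries held 9 of 12731038 and 14 of 19483386 counts, so by library totals alone their order turns and the ranges overlap. The log2 difference was 1.92 (standard error 0.53, adjusted p = 0.864), higher in Krt8–/– AECs in 3 of 3 isolations. Without isolation 1, which held most of the Krt8+/+ counts, it was 3.46 (adjusted p = 0.982). On D1 the sign was the opposite, at -0.61 (95% confidence interval -1.23 to 0.00), which did not pass after adjustment, lower in Krt8–/– AECs in 3 of 3 isolations although the ranges overlapped, and on D3 and D7 the differences were -0.01 (95% confidence interval -0.60 to 0.57) and 0.02 (-0.56 to 0.60). The test of a genotype difference that changes with day gave an unadjusted p of 0.00520 for Ankrd1 and did not pass after Benjamini-Hochberg adjustment under any alternative, the lowest adjusted p being 0.0678 with DESeq2.

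**Figure D3:**
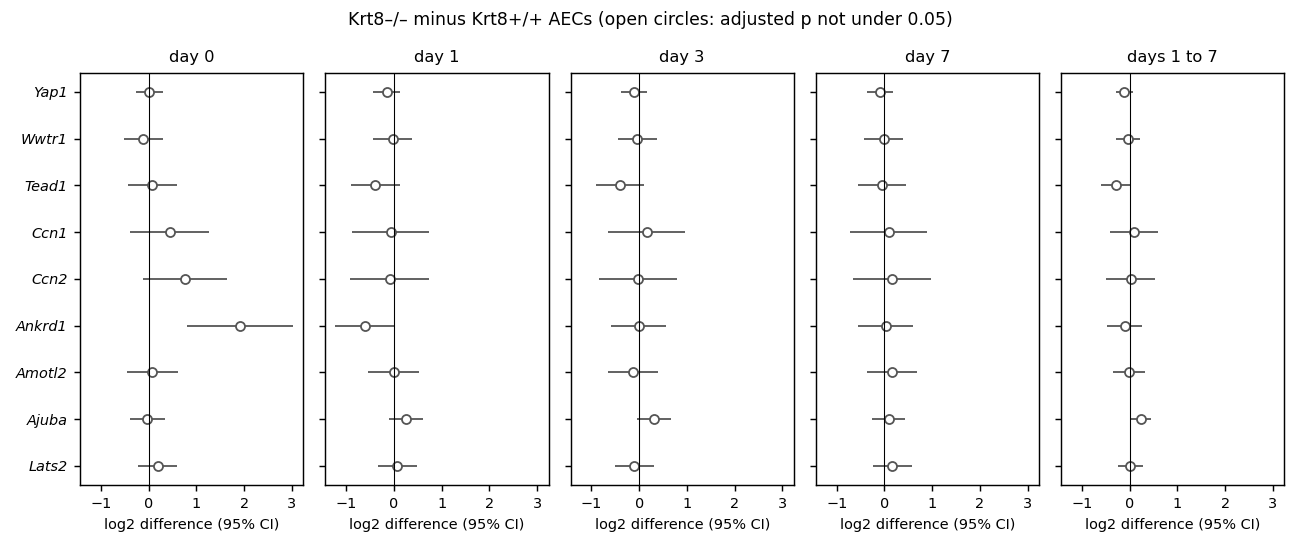
Log2 difference between Krt8–/– and Krt8+/+ AECs (x axis) for each of the 9 genes on each day and over D1 to D7, with 95% confidence intervals (3 isolations per group). No difference passed an adjusted p of 0.05, and the interval farthest from 0 is that of Ankrd1 at D0.

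Other genes of the pathway were grouped by role. Of 16 other YAP/TAZ target genes, all tested, 10 were higher and 2 lower at D1 in Krt8+/+ AECs. The counts were 13 and 1 at D3 and 14 and 1 at D7. Their median log2 fold change was 1.75, 2.54, and 2.69, against a median of 0.00 over all genes tested. Of all genes, 26.2%, 26.1%, and 28.6% were higher and 28.5%, 27.8%, and 30.2% lower. In Krt8–/– AECs the counts were 10 and 2, 14 and 1, and 14 and 1, with medians of 1.53, 2.14, and 2.73. There, 23.7%, 25.4%, and 28.6% of all genes were higher and 26.9%, 26.6%, and 29.9% lower, with medians of -0.01, -0.01, and 0.00. F3, the tissue factor that starts blood coagulation, was at 33.1, 35.6, and 24.6 CPM at D0 and 3188, 3406, and 2314 at D7 in Krt8+/+ AECs, a log2 fold change of 6.58 (adjusted p = 1.6e-12). Tgfb2, a TGF-β ligand, was at 2.61, 2.06, and 1.77 CPM at D0 and 136, 170.0, and 128 at D7 (6.04, 2.9e-10). Axl, a receptor tyrosine kinase, was at 30.5, 12.8, and 6.53 CPM at D0 and 531, 501, and 862 at D7 (5.22, adjusted p = 6.8e-07), and its log2 fold change was 6.14 without isolation 1 and 4.56 without isolation 3. Fjx1 rose (adjusted p = 1.1e-05 at D1) from 0.572, 0, and 0.221 CPM at D0 to 8.96, 5.85, and 4.21 at D1. The exceptions were Rbms3, an RNA-binding protein, at 133, 85.9, and 119.9 CPM at D0 and 20.2, 4.10, and 7.27 at D1 (-3.42, adjusted p = 5.9e-05, and -4.17 without isolation 1), and Arhgef17, which was lower at D1 (-0.97, 1.9e-04) and higher at D7 (0.49, 0.0239, and 0.39, 0.137 without isolation 3).

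Of the CCN family beside Ccn1 and Ccn2, 3 of 4 genes were tested. In Krt8+/+ AECs, 2 of them were higher on each culture day, and in Krt8–/– AECs 1 was, with 0 lower. Of all genes, 26.1% to 28.6% were higher and 27.8% to 30.2% lower in Krt8+/+ AECs. In Krt8–/– AECs, 23.7% to 28.6% were higher and 26.6% to 29.9% lower. Ccn4 was at 0.254, 0.108, and 0.221 CPM at D0, with a mean of 59.4 ± 16.7 (SD, n = 3) at D3 and 92.0 ± 18.9 at D7 (adjusted p = 1.3e-09 at D7). Ccn3 was at 7.95, 4.66, and 7.53 CPM at D0 and 46.5, 11.2, and 9.68 at D7 in Krt8+/+ AECs (1.73, adjusted p = 0.00753), and at 11.2, 11.4, and 12.3 and 17.0, 6.85, and 6.31 CPM in Krt8–/– AECs, where no change was called. The Krt8+/+ value rested on isolation 1, without which it was 0.78 (adjusted p = 0.0999). No gene of these lists was called between genotypes by edgeR or DESeq2, with 0 of 45 at an unadjusted p under 0.05 in edgeR on D0, D1, and D3, 1 at D7 (Ccn3), and 2 over D1 to D7 (Ccn3 and F3). Of all 18046 genes, 479, 638, and 452 were under it on D0, D1, and D3, 255 at D7, and 520 over D1 to D7. Ccn6 had 0 counts in all libraries.

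Among TEAD factors and their VGLL cofactors, 5 of 7 genes were tested, with 3 higher and 2 lower at D1 and 3 higher and 1 lower at D7 in Krt8+/+ AECs. Of all genes, 26.2% were higher and 28.5% lower at D1, and 28.6% and 30.2% at D7. Tead2 rose from 2.03, 2.27, and 1.11 CPM at D0 to 24.1, 28.7, and 22.7 at D7 (3.78, adjusted p = 2.1e-09), and Tead4 from 6.17, 4.12, and 6.09 to 11.5, 10.9, and 7.36 (0.86, 0.00427), and the Tead4 value was 0.69 (adjusted p = 0.0962) without isolation 2. Tead3 fell at D1 (-1.62, adjusted p = 3.7e-05) and was called on neither of the later days. VGLL proteins compete with YAP and TAZ for TEADs, and the 2 tested went opposite ways. Vgll3 rose from 6.49, 1.41, and 3.32 CPM at D0 to 144, 209, and 201 at D7 (5.55, adjusted p = 2.1e-09, and 6.44 without isolation 1), and Vgll4, a repressor of TEAD targets, fell from 68.5, 61.2, and 60.2 to 22.7, 16.6, and 18.0 (-1.73, 1.2e-07). Vgll1 and Vgll2 had 9 counts and 1 count in all libraries and were not tested.

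The next list holds the kinase cassette. Of 10 Hippo kinases and scaffolds beside Lats2, 1 was higher and 3 lower at D1 in Krt8+/+ AECs, and 3 were higher and 3 lower at D7, with median log2 fold changes of -0.04 and 0.10. These shares were near those of all genes at D7 (28.6% higher and 30.2% lower). At D1 the share that was lower was near that of all genes (28.5%), and the share that was higher was below it (26.2%). Map4k4, a kinase that can act on LATS beside MST1 and MST2, rose from 18.0, 16.6, and 15.8 CPM at D0 to 85.3, 87.2, and 96.0 at D7 (2.41, adjusted p = 4.8e-10). Stk3, which encodes MST2, was higher by 0.74 at D7 (adjusted p = 1.4e-04), as was Mob1a, a LATS cofactor, by 0.44 (adjusted p = 0.0234, and 0.198 without isolation 3). The genes that fell were Taok3, from 373, 346, and 314 CPM to 69.4, 85.3, and 63.2 (-2.25, 3.8e-07), Taok2 (-1.15, 3.1e-04), and Mob1b (-1.04, 1.0e-05). TAO kinases activate MST1 and MST2, and MOB1 proteins activate LATS kinases.

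Of 12 upstream regulators at the membrane and at junctions, 11 were tested, and 2 were higher and 4 lower at D1 and 5 higher and 3 lower at D7 in Krt8+/+ AECs, with medians of -0.36 and 0.11, beside 26.2% higher and 28.5% lower of all genes at D1 and 28.6% and 30.2% at D7. Amot, which like Amotl2 encodes an angiomotin, rose from 0.827, 1.41, and 0.775 CPM at D0 to 52.0, 89.6, and 45.6 at D7 (5.97, adjusted p = 3.2e-09). Ptpn14, a phosphatase that binds YAP, rose most at D1, to 232, 145, and 312 CPM from 10.9, 10.7, and 7.64 (4.55, adjusted p = 4.9e-09), and was at 49.6, 54.7, and 58.9 at D7. Fat4, an atypical cadherin, was at 0.954, 0.758, and 0.443 CPM at D0 and 8.78, 11.0, and 16.8 at D7 (4.03, 3.0e-04). The genes that fell included Nf2, which encodes merlin (-0.61 at D7, adjusted p = 0.00797), Wwc1, which encodes KIBRA (-0.87, 0.00240), and Limd1, a relative of Ajuba (-0.95, 9.6e-06). On the scale of library totals these genes kept their direction, but Nf2 (-0.16, adjusted p = 0.452) and Wwc1 (-0.43, 0.0642) no longer passed, nor did Nf2 without isolation 1 (-0.49, 0.0744).

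**Figure D4:**
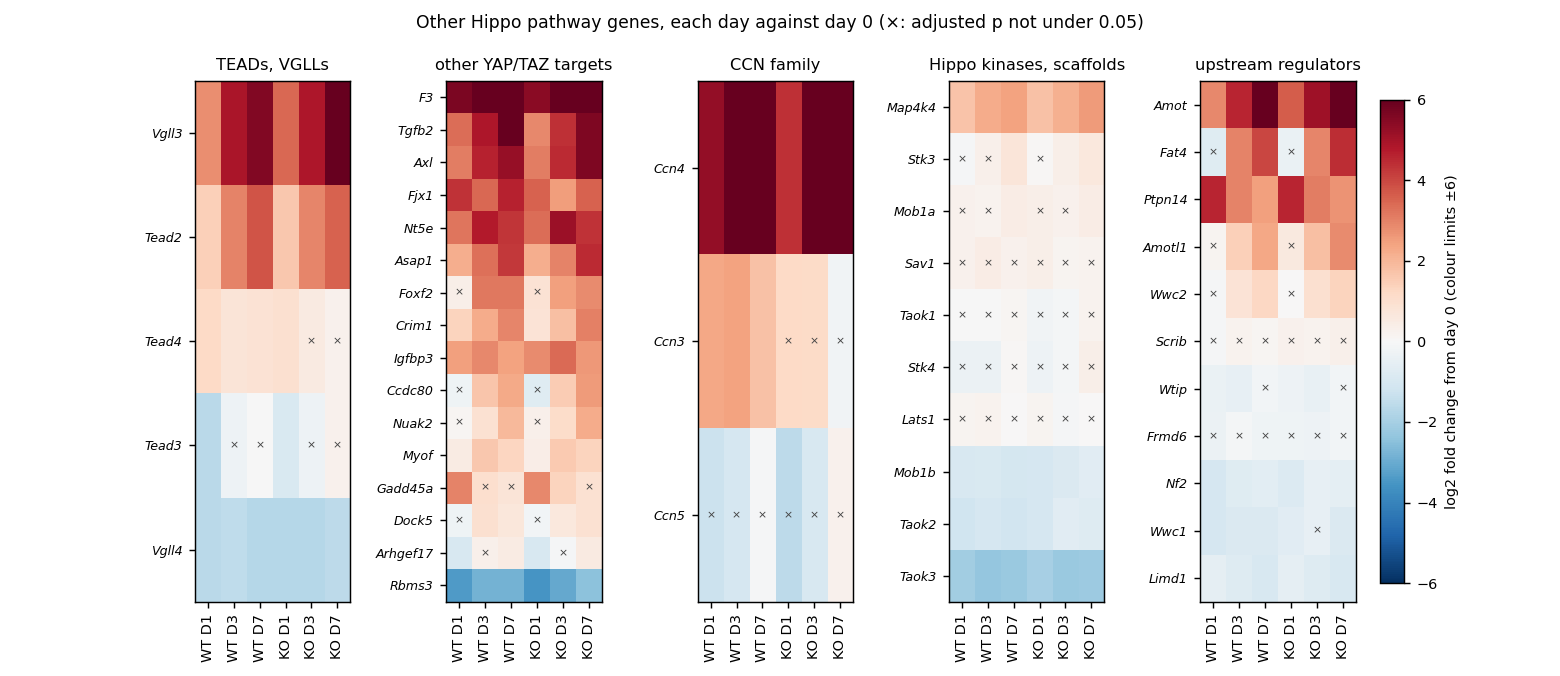
Log2 fold change on D1, D3, and D7 against D0 in Krt8+/+ (WT) and Krt8–/– (KO) AECs for 45 other genes of the Hippo pathway, grouped by role and shown as colour, with a cross where the adjusted p was not under 0.05. Most rows of the YAP/TAZ target list are red from D3 on, and Rbms3 is blue throughout.

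Markers of other cell types moved in different directions over the days, and their part in the results was not tested. In bulk RNA, fewer cells of a type and less RNA per cell cannot be told apart. The sum of 5 smooth muscle markers (Acta2, Myh11, Tagln, Des, and Cnn1) in Krt8+/+ AECs lay between 11.7 and 52.0 CPM at D0, between 41.7 and 61.3 at D1, between 692 and 1100.0 at D3, and between 2322 and 4259 at D7. In Krt8–/– AECs it lay between 21.1 and 49.9 CPM at D0 and between 3307 and 4960.1 at D7. On D7, Acta2 lay between 987 and 2124 CPM, and Myh11, a myosin of smooth muscle, between 33.5 and 88.7, against 1.33 and 11.6 as the lowest and highest values of D0.

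The 8 fibroblast markers summed to between 296 and 994 CPM at D0, between 143 and 261 at D1, between 1005 and 1789.6 at D3, and between 899 and 1911 at D7 in Krt8+/+ AECs. Within that list Col1a1 was between 22.5 and 100.4 CPM at D0 and between 375 and 760.1 at D7, while Dcn was between 121 and 299 at D0 and between 9.68 and 26.6 at D7. The 4 mesothelial markers in Krt8+/+ AECs summed to between 66.3 and 205 CPM at D0 and between 193 and 359.6 at D1. They summed to between 750.1 and 1202 CPM at D3 and between 988 and 1873 at D7, and 1 of them, Msln, held most of it. Msln lay between 983 and 1866 CPM at D7, whereas Upk3b lay between 0.597 and 1.82 and Wt1 between 0.597 and 0.829. The 7 endothelial markers summed to at most 31.2 CPM in any library, and at D7 in Krt8+/+ AECs 4 of them (Pecam1, Tie1, Emcn, and Cldn5) had 0 counts. Sums of the 6 macrophage markers lay between 7.80 and 179 CPM over all libraries.

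Within the epithelium, the 5 club and ciliated markers in Krt8+/+ AECs summed to between 4536 and 10145 CPM at D0. They summed to between 25.4 and 35.9 CPM at D7, when Scgb3a2 and Ccdc153 had 0 counts. In Krt8–/– AECs that sum was higher at D0, between 12261 and 17382 CPM, with no overlap, and lay between 16.6 and 35.7 at D7. The 7 markers of transitional AECs were Krt8, Krt18, Krt19, Krt7, Cldn4, Sfn, and Itgb6. In Krt8+/+ AECs they summed to between 1119 and 1284 CPM at D0, between 8445 and 10157 at D1, and between 10350.3 and 16775 at D7. The 7 AEC1 markers in Krt8+/+ AECs summed to between 2509 and 3119 CPM at D0 and between 823 and 1205 at D1. At D3 they lay between 1338 and 2485 CPM, and at D7 between 1469 and 2682. In Krt8–/– AECs their D0 sum was also higher without overlap, between 3312 and 3645 CPM. The part of these D0 differences in the comparison of genotypes was not tested. The 4 proliferation markers in Krt8+/+ AECs summed to between 8.01 and 21.3 CPM at D0 and between 8.89 and 13.0 at D1. Their sum was highest at D3, between 257 and 388 CPM, and lay between 129 and 247 at D7.

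**Figure D5:**
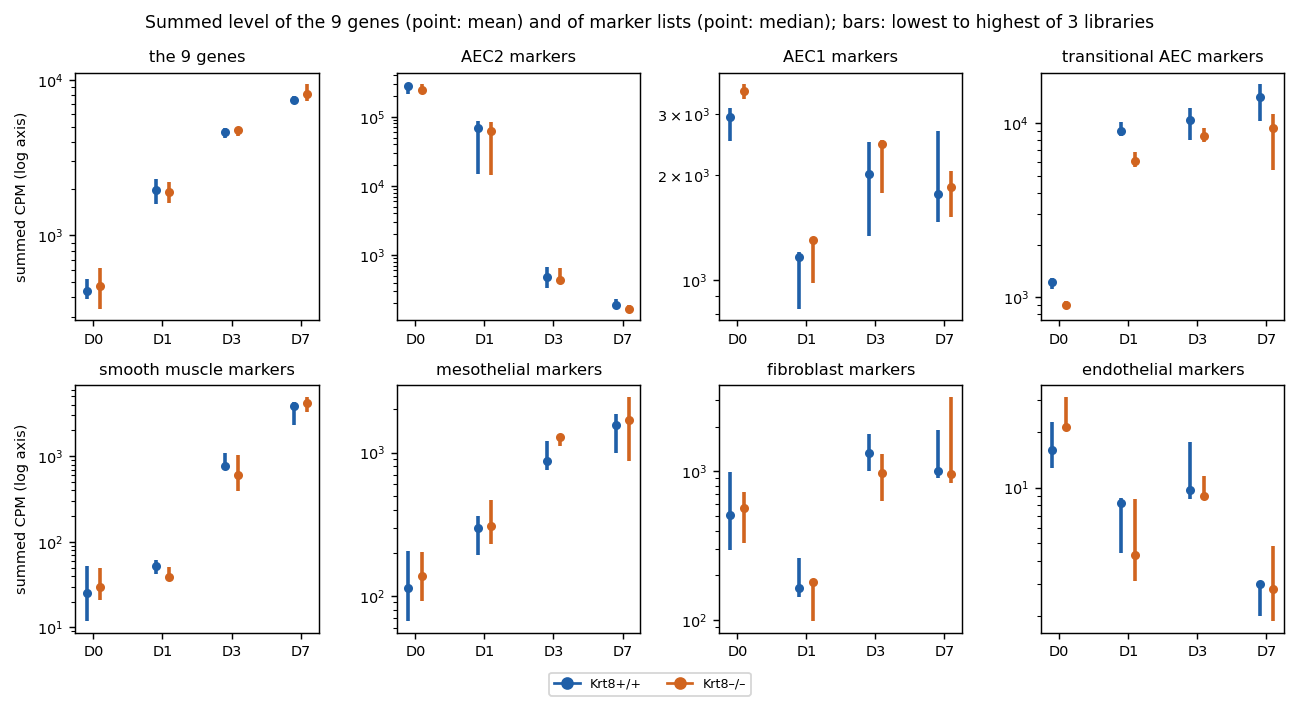
Summed CPM (log axis) of the 9 genes and of 7 marker lists by day and genotype, with a bar from the lowest to the highest of 3 libraries and a point for the mean (9 genes) or the median (marker lists). The smooth muscle and mesothelial sums rise with the sum of the 9 genes, and the AEC2 sum falls, with 1 low library per genotype at D1.

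Across the 24 libraries, which have isolations and days in common, the log2 CPM of the 8 genes other than Yap1 rose and fell together. Pearson's r over their 28 pairs ranged from 0.667 (Amotl2 and Ajuba) to 0.987 (Ccn2 and Ankrd1), with a median of 0.848. With Yap1, r ranged from -0.146 (Ajuba) to 0.333 (Lats2). The 3 genes outside the 9 with the highest r to Ccn2 were Palld (0.994), Flna (0.991), and Fblim1 (0.991), which encode proteins of the actin cytoskeleton. Those for Ankrd1 were Prss23 (0.982), Klhl30 (0.980), and Fblim1 (0.979). For Yap1 they were Mettl21a (0.779), Rbms2 (0.766), and Slc25a40 (0.764). These values describe a shared course over the days and were not tested.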

How the data were processed

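RNA was measured in 24 libraries of AECs, 3 isolations for each genotype (Krt8+/+ or Krt8–/–) on day 0, 1, 3, or 7. The authors deposited 1 table of whole-number counts per gene with no normalization. The submitters' processing notes name cutadapt 2.3, STAR 2.7.8a, RSEM 1.3.3, and GRCm38, and no source used here gives the counting settings. Of 55426 entries, 55421 were Ensembl genes, and 5 reporter entries held 0 counts and were left out. Total counts of 10184439 to 19483386 per library limit the precision of genes near 0, and intervals from counts cover counting error only. No 2 libraries held the same counts.

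Groups came from the labels. Counts were fitted with edgeR 4.0.16 in R 4.3.3 (quasi-likelihood F test, TMM factors, filterByExpr with a minimum count of 10 and a minimum total of 15). The fit held all 8 groups and 18046 genes, with 16 residual degrees of freedom, and p-values were adjusted by Benjamini-Hochberg over all of these genes at 0.05. The comparison of genotypes over days 1 to 7 weighted the days by 0.167, 0.5, and 0.333. RPKM used merged exon lengths of GENCODE M21. The alternatives were DESeq2's size factors, library totals, no filter on low counts, DESeq2 1.42.0 in place of edgeR, isolation as a block, and each isolation left out. The scripts were tested on simulated data.

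Same-numbered libraries share the number that ends their titles, read here as an isolation date, which pairs them. Their deviations from the group means correlated with r of 0.0573 to 0.548 over 12 pairs of genotypes and -0.0345 to 0.383 over 36 pairs of days. Whether an isolation held several animals is not given, so p-values measure the spread between isolations.

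Beyond the 9 genes, the text names from each pathway list up to 3 genes in each direction with the largest change past the threshold, and the 3 genes most like Ccn2, Ankrd1, or Yap1 by Pearson's r. The same result for Ccn1 is not reported here. All members, lists, and promoter motifs were chosen with earlier results of these data known.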

Additional observations from a re-analysis of the deposited data

How the results depend on the processing

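Each of 117 single-gene results was recomputed under 8 alternatives. Of 936 values, 853 kept their direction and their side of the threshold, 42 no longer passed, 25 newly passed, and 16 changed sign. With library totals alone, Yap1 against D0 was at 0.28 at D1 and 0.57 at D3 in Krt8+/+ AECs and at 0.14 and 0.40 in Krt8–/– AECs. On that scale, 1 member was called from D3 to D7 in Krt8+/+ AECs. Of all genes, 7.53% were called there, 1.85% higher and 5.67% lower. Without the filter on low counts, Yap1 at D3 in Krt8+/+ AECs was at 0.0043. The Lats2 difference between genotypes over D1 to D7 was -0.0015 with DESeq2's size factors and also with DESeq2's test. The cause of these shifts was not tested, except that library totals move all genes together.

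Leaving out 1 isolation gave 2 to 3 called members from D1 to D3 in either genotype, 0 to 1 from D3 to D7 in Krt8+/+ AECs, 1 to 3 in Krt8–/– AECs, and 5 to 6 at D1 against D0 in Krt8–/– AECs, in fits with fewer libraries. Of all genes, these fits called 14.1% to 17.1% from D1 to D3 in Krt8+/+ and 10.2% to 14.5% in Krt8–/– AECs, 1.75% to 3.17% and 4.64% to 5.23% from D3 to D7, and 36.3% to 41.0% at D1 in Krt8–/– AECs. Values near 0 crossed it, namely Yap1 at D3 in Krt8+/+ AECs (-0.052 to 0.018) and at D7 in Krt8–/– AECs (-0.023 to 0.12), and, between genotypes, Wwtr1 at D0 (-0.25 to 0.13), Ankrd1 at D3 (-0.14 to 0.11) and D7 (-0.011 to 0.072), and over D1 to D7 Wwtr1 (-0.067 to 0.018), Ccn2 (-0.024 to 0.050), and Lats2 (-0.012 to 0.028).

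With isolation as a block, 8 members were called at D3 against D0 in Krt8–/– AECs, 5 from D1 to D3, and 5 from D3 to D7, adding Amotl2, Ccn1, and Ccn2, respectively, while the share of all genes called moved from 52.0% to 54.6%, 23.6% to 26.9%, and 10.5% to 12.5%. The block changed no other call of the results given here, and 0 members were called between genotypes with or without this pairing. The genotypes differed in Y-linked RNA in isolation 1 and not in this way in isolations 2 and 3. With 16 counts over 3 libraries, depth limits the Ankrd1 level at D0 in Krt8+/+ AECs.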
